A study of Mus musculus with 12 samples.

Results

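The 6 genes of the Homer and Shank families of postsynaptic scaffold proteins, Homer1, Homer2, Homer3, Shank1, Shank2 and Shank3, were followed in RNA-seq of the mouse hippocampus. They were chosen by gene symbol and make up 6 of the 78298 genes in the deposited table. Poly(A) RNA was sequenced in 12 libraries from male C57BL/6 mice of 6 to 8 weeks that had been selected for their preference for sucrose, and the 3 groups had 4 libraries each. Control mice received saline without any stress. Model mice went through 28 days of chronic unpredictable mild stress, a changing schedule of mild stressors used as a model of depression, and were given saline too. Treatment mice went through the same stress and were given Poria cocos acid A by gavage at 20 mg/kg a day for 14 days, from day 15 on. The labels leave unsaid whether each library came from its own animal, and the p-values speak only for the spread among these samples.

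Homer and Shank proteins form a mesh in the postsynaptic density, the protein layer under the membrane of excitatory synapses. Homer proteins bind through their N-terminal EVH1 domain to metabotropic glutamate receptors, to IP3 and ryanodine receptors and to Shank, and the long forms join into tetramers through a C-terminal coiled coil. Shank proteins are large scaffolds that bind Homer, the GKAP (Dlgap) proteins beneath PSD-95 and NMDA receptors, and regulators of actin. Homer1 also makes a short form, Homer1a, which keeps the EVH1 domain but lacks the coiled coil and is induced by synaptic activity, and which can break the links that the long forms make.

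The library totals ran from 17083260 to 27479083 estimated counts, and all 6 genes were among the 18600 that passed the filter on low counts and were tested. Levels are given as CPM (counts scaled to the library size by TMM), and fold changes as log2 with their standard error (SE). Markers of neurons and of the hippocampal subfields were present in every library, which goes with the labelled tissue. Marker levels of other tissue also differed between libraries: the summed level of 15 choroid plexus genes ran from 1398 to 4176 CPM in Control, from 1167 to 1634 CPM in Model and from 973 to 2562 CPM in Treatment. Treatment replicates 2 and 3 carry library names (1631 and 1636) apart from the other 10, although the labels put all libraries in batch 1.

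The short and long Homer1 messages share their start and then part, and the stretch where they part is shown because the counts of the gene add up both. In the GENCODE vM21 annotation (build GRCm38, plus strand) Homer1 lies on chromosome 13 and has 12 transcripts. Homer1-204, from 93304495 to 93360462, has 5 exons and a coding sequence of 558 bases, the layout of the short form. Homer1-201, from 93305159 to 93403790, has 9 exons and a coding sequence of 1062 bases and is a long form. Their coding sequences are identical over the first 527 bases. Below, the last 24 shared bases are in lower case and the first 24 bases that follow in each message are in capitals, written 5′ to 3′.
Homer1-204: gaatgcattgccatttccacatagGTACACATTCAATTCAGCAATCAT
Homer1-201: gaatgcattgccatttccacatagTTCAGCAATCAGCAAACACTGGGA
The short message is the longer of the pair as a whole molecule, at 5713 bases against 2765, and most of each is not coding. Another long form, Homer1-202, has 9 exons, a coding sequence of 1110 bases and 4287 bases in all. The long forms thus differ in length among themselves, and a mean length over a mix of messages does not give the share of the short form. In the deposited table Homer1 is listed at chromosome 13, 93436143 to 93478420 of build GRCm39, which are the ends of 1 transcript and not of the whole gene.

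The start region of Homer1 is shown beside that of its paralog Homer2 because only Homer1 passed the test between groups. RefSeq promoter windows (build GRCm38.p6, 250 bases before to 50 after the start) were matched for 4 of the 6 genes. Homer1 and Homer2 have a pair of windows each, and the one at the upstream start is printed. The upstream Homer1 window, chr13:93303507-93303806 on the plus strand, holds 3 copies of TGACG, the core of the element that the factor CREB binds, in capitals. They begin 56, 40 and 14 bases before the start. Of the annotated transcripts, Homer1-207 starts inside this window, at 93303757. The Homer1-204 and Homer1-201 messages shown above start downstream of the window, at 93304495 and 93305159. The other Homer1 window, chr13:93307784-93308083, holds none. The upstream Homer2 window, chr7:81706876-81707175 on the minus strand, holds none either, nor do the windows of Homer3 and Shank3 or the other one of Homer2.
Homer1: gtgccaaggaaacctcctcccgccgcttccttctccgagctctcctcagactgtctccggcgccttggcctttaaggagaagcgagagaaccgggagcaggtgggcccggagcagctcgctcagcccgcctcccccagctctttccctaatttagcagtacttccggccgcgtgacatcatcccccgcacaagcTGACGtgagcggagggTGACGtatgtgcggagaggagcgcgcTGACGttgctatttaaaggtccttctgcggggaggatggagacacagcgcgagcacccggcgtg
Homer2: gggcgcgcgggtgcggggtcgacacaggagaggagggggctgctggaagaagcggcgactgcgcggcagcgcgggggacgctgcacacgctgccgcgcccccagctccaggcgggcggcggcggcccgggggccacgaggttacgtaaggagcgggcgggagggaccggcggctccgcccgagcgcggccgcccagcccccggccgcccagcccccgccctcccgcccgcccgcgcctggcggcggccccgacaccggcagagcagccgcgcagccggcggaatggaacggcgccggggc
TGACG was searched on both strands, and 20.8% of 32851 mouse promoter windows of the same length hold at least 1 copy, while 1.03% hold 3 or more. The full palindrome TGACGTCA, which counts as a copy on each strand, was found in none of the 6 windows matched to these genes and in 1.79% of all windows. The AP-1 site TGANTCA was likewise in none of them, against 7.81% of all. The Egr site GCGTGGGCG was found once, in the Shank3 window (146 bases before the start), and occurs in 0.612% of all windows. A match in letters is a description and shows no binding.

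Per length of message, Shank1 was the most abundant of the 6 and Homer2 the least in all groups. FPKM, the deposited value scaled by length and library, put Shank1 in Control at 102 ± 8.50 (SD, n = 4) and Shank3 at 68.1 ± 5.42. Shank2 followed at 30.8 ± 1.70, Homer3 at 28.0 ± 4.12 and Homer1 at 27.7 ± 2.06 FPKM, and the ranges of these neighbours overlapped. Homer2 was lowest at 17.1 ± 0.80 FPKM, clear of Homer1. The order of the top pair and of the lowest gene was the same in Model, where Shank1 averaged 99.6 ± 14.6, Shank3 65.2 ± 5.06 and Homer2 17.2 ± 2.34 FPKM. In Treatment Shank1 averaged 101 ± 20.4, Shank3 70.3 ± 5.03 and Homer2 15.7 ± 2.63 FPKM. The middle of the order changed: Homer1 was the fifth in Control and the third in Model (40.8 ± 6.17 FPKM) and Treatment (37.3 ± 7.09 FPKM). In both stressed groups its range still overlapped that of Shank2, at 33.5 ± 2.44 FPKM in Model and 33.1 ± 3.90 FPKM in Treatment. Homer3 averaged 29.0 ± 4.40 FPKM in Model and 29.9 ± 7.80 FPKM in Treatment.

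**Figure D1:**
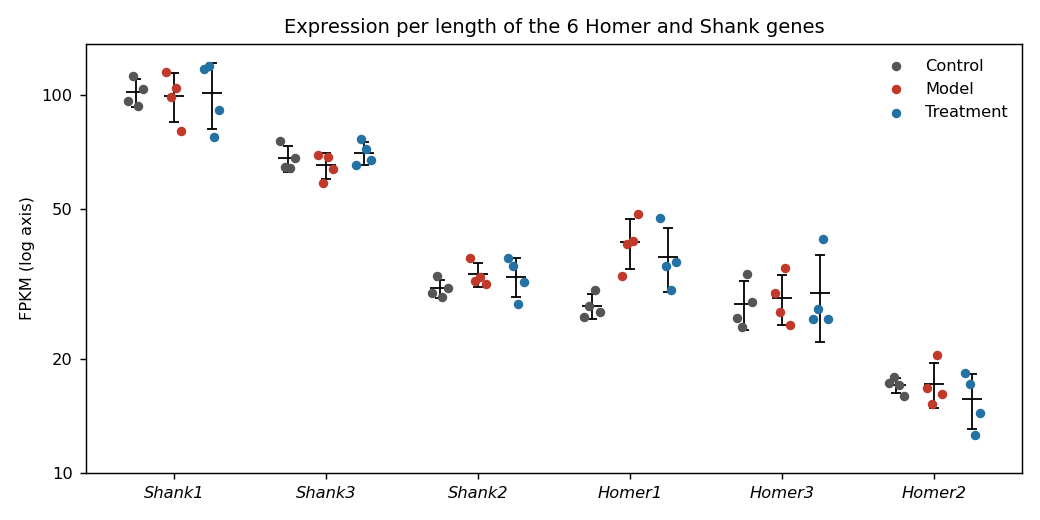
Deposited FPKM (log axis) of the 6 genes in each library, grouped by condition, with the mean (long bar) and SD (short bars) of 4 libraries. Shank1 averages 102 FPKM in Control and Homer2 17.1 FPKM, and the Homer1 points of Model and Treatment sit mostly above those of Control.

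Homer1 took a larger share of the Homer family in Model and in 3 of 4 Treatment libraries than in Control, while the shares of the Shank genes moved less. Homer1 made up 37.5% to 39.6% of the summed Homer FPKM in the 4 Control libraries. Its share was 41.7% to 54.2% in the Model libraries, so that these groups did not overlap. In Treatment the share was 51.8%, 44.3%, 36.0% and 47.5% in replicates 1 to 4, and replicate 3 fell below every Control library. That library also had the highest Homer3 level of the 12 on this scale, at 41.6 FPKM, while its Homer3 value of 57.3 CPM was within the range of the others. Among the Shank genes, Shank1 held 50.6% ± 2.43, 50.1% ± 3.01 and 49.2% ± 4.29 (SD, n = 4) of the family's FPKM in Control, Model and Treatment. Shank2 held 15.4% ± 0.437, 17.0% ± 0.818 and 16.2% ± 0.785, and all 4 Model libraries lay above the Control libraries (14.8% to 15.8%).

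Model was compared with Control, which asks what the stress schedule changed. Homer1 rose with stress and was the 1 gene of the 6 that passed the test. Its mean was 1.61 times the Control mean. The other 5 genes had positive log2 fold changes that did not pass. Of all 18600 genes tested, 0.790% passed in either direction and 0.339% passed as higher.

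Homer1, the adaptor with the activity-induced short form, measured 84.2, 87.3, 99.1 and 87.1 CPM in the 4 Control libraries, in the order of their replicate numbers. In Model replicates 1 to 4 it stood at 111, 140.3, 143 and 182 CPM. Every Model library thus lay above every Control library, with Model replicate 4 highest and Model replicate 1 nearest to Control. The log2 fold change was 0.69 ± 0.14 (SE, adjusted p = 0.0316 in edgeR), on means of 89.4 ± 6.60 and 144 ± 29.1 CPM (SD, n = 4). Of all genes tested, 5.95% had Model libraries that all lay above the Control libraries. In whole tissue, a change in the number of cells that express a gene and a change in RNA per cell cannot be told apart.

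The Homer1 call depended on which libraries were in the fit. Leaving out 1 library at a time kept the log2 fold change between 0.56 and 0.80, but the call was lost without Control replicate 1 (adjusted p = 0.110), 2 (0.106) or 4 (0.062) and without Model replicate 2 (0.071), 3 (0.086) or 4 (0.101). It held without Control replicate 3 (0.045), Model replicate 1 (0.023) or any single Treatment library (0.013 to 0.037). Calls over all genes changed as well, from 147 with all libraries. They numbered 8, 8 and 126 without Control replicates 1, 2 and 4, and 91 without Control replicate 3. Without Model replicates 1 to 4 in turn they numbered 138, 21, 13 and 11, and without a single Treatment library 127 to 273. With a covariate for the choroid plexus score, the log2 fold change was 0.59 and the adjusted p 0.337, and with that covariate only 3 genes of all passed. All 15 choroid plexus markers had negative log2 fold changes (median -1.21, 1 of 15 passed as lower). Markers of thalamus and habenula, 8 in all, summed to 76.9 to 309 CPM in Control and 76.0 to 132 CPM in Model (median -0.79, 0 of 7 tested passed in edgeR and 3 of 7 at an unadjusted p under 0.05). The summed level of 6 general neuronal genes was 4701 to 4949 CPM in Control and 5289 to 5583 CPM in Model, without overlap (median log2 fold change 0.13, 0 of 6 passed in edgeR and 2 of 6 at an unadjusted p under 0.05). Dentate granule cell markers summed to 621 to 770.3 CPM in Control and 720 to 887 CPM in Model (8 of 8 positive, 1 rose). Oligodendrocyte markers summed to 5218 to 6169 CPM and 4919 to 6039 CPM (6 of 6 negative, 2 fell). Of the red blood cell markers 5 of 5 were negative and 1 fell, and of the leptomeningeal markers 4 of 6 were negative and 1 fell. The part of these differences in the Homer1 result was not tested beyond the covariate.

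Within each library Homer1 was also set against its own relatives, as its log2 CPM minus the mean log2 CPM of the other 5 genes. In Control this difference was -1.21, -1.18, -0.998 and -1.18. In Model it was -0.96, -0.47, -0.68 and -0.12. Relative to its family, Homer1 thus stood 0.58 log2 units higher in the Model mean than in the Control mean. The groups did not overlap, but Model replicate 1 (-0.964) lay close to Control replicate 3 (-0.998). No share over all genes was computed for this score. In CPM, 5.95% of all genes had Model libraries that all lay above Control. No p is given for this score, since Homer1 was picked out with its rise known.

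The other Homer genes changed less. Homer2, a paralog whose long forms build the same tetramers, stood at 120.5, 121, 122 and 115 CPM in Control and at 115, 116, 137 and 129 CPM in Model. These ranges overlapped, and the log2 fold change was 0.05 ± 0.08 (SE, adjusted p = 0.83). Homer3, best known from cerebellar Purkinje cells, stood at 46.5, 44.9, 57.2 and 52.0 CPM in Control and at 58.6, 52.1, 63.5 and 50.0 CPM in Model. Its log2 fold change was 0.16 ± 0.09 (adjusted p = 0.437), with overlapping groups. The summed level of 5 cerebellar markers was highest in a Model library, at 49.4 CPM in replicate 1, against at most 12.0 CPM in Control, and its part in the Homer3 level was not tested.

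The Shank genes stayed close to their Control levels. Shank1, the largest contributor of the family here, stood at 609, 684, 613 and 670.5 CPM in Control and at 719, 608, 697 and 585 CPM in Model (log2 fold change 0.02 ± 0.09, adjusted p = 0.954). The Model libraries spread to both sides of Control. Shank2 stood at 210.3, 235, 207 and 226 CPM in Control and at 269, 233, 249 and 237 CPM in Model. Of the Model libraries, 3 of 4 lay above the highest Control library, and the log2 fold change of 0.17 ± 0.08 had an unadjusted p of 0.0388 and an adjusted p of 0.287. For comparison, 15.6% of all genes tested had an unadjusted p under 0.05. Shank3, the gene lost in Phelan-McDermid syndrome, stood at 384, 349.5, 342 and 334 CPM in Control and at 372, 325, 410.0 and 342 CPM in Model (log2 fold change 0.04 ± 0.08, adjusted p = 0.865). Across the 6 genes the median log2 fold change was 0.11, against -0.01 over all genes tested. All 6 of 6 were positive where 47.3% of all genes were. The 6 general neuronal genes were likewise positive in 6 of 6, with a median of 0.13.

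**Figure D2:**
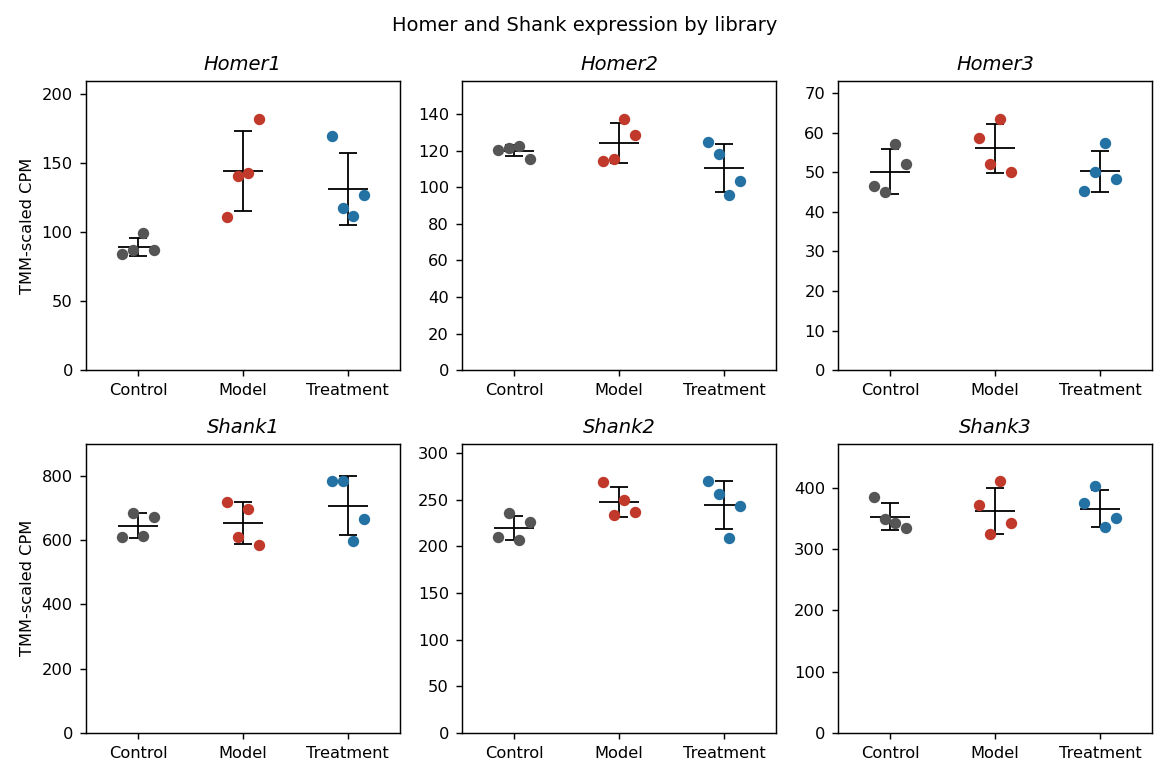
Scaled CPM of each gene (vertical axes start at 0) in the 4 libraries of each group, with the mean (long bar) and SD (short bars). The Homer1 points of Model (111 to 182 CPM) and Treatment (112 to 169 CPM) all lie above those of Control (84.2 to 99.1 CPM), whereas the groups overlap for the other 5 genes.

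A second readout of Homer1 was the length by which the authors scaled it, obtained from the estimated count, the FPKM and the library total. This length is not 1 fixed value per gene in the table: over 18320 genes with values it varied between libraries with a median coefficient of variation of 4.40%. For Homer1 it was 3321, 3169, 3263 and 3271 bases in Control. It was 3345, 3467, 3420 and 3710 bases in Model. Every Model library had a longer value than every Control library, and the means of 3256 ± 63.4 and 3485 ± 158 bases (SD, n = 4) differed by 229 bases. No p is given, for the same reason as above. Of the 18320 genes, 1.17% had Model values that were all longer than the Control values.

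Between the groups, the longer scaling length of Homer1 in Model went together with its higher count. The rise was smaller in FPKM, which divides by that length. Inside the groups the match was mixed. Model replicate 4 had both the highest CPM (182) and the longest length of its group. Control replicate 1 (84.2 CPM, 3321 bases) and Treatment replicate 3 (112 CPM, 3656 bases) had the lowest CPM and the longest length of theirs. Homer1 stood at 25.8, 27.7, 30.5 and 26.7 FPKM in Control and at 33.3, 40.4, 41.0 and 48.4 FPKM in Model. These groups did not overlap either, but the log2 fold change of 0.55 did not pass in limma on log2(FPKM + 0.1) (adjusted p = 0.127). In that fit only 5 of 18652 genes passed, so the lost call cannot be laid to the length alone. How the authors set the length is not given in the sources used here, and the share of the short and long messages was not measured. Among the other 5 genes no scaling length separated Model from Control. The Homer2 length, for one, was 6827 to 7238 bases in Control and 6555 to 7821 bases in Model. That of Shank2 varied least, with a coefficient of variation of 1.51% over the 12 libraries, and that of Homer3 most, with 8.93%.

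**Figure D3:**
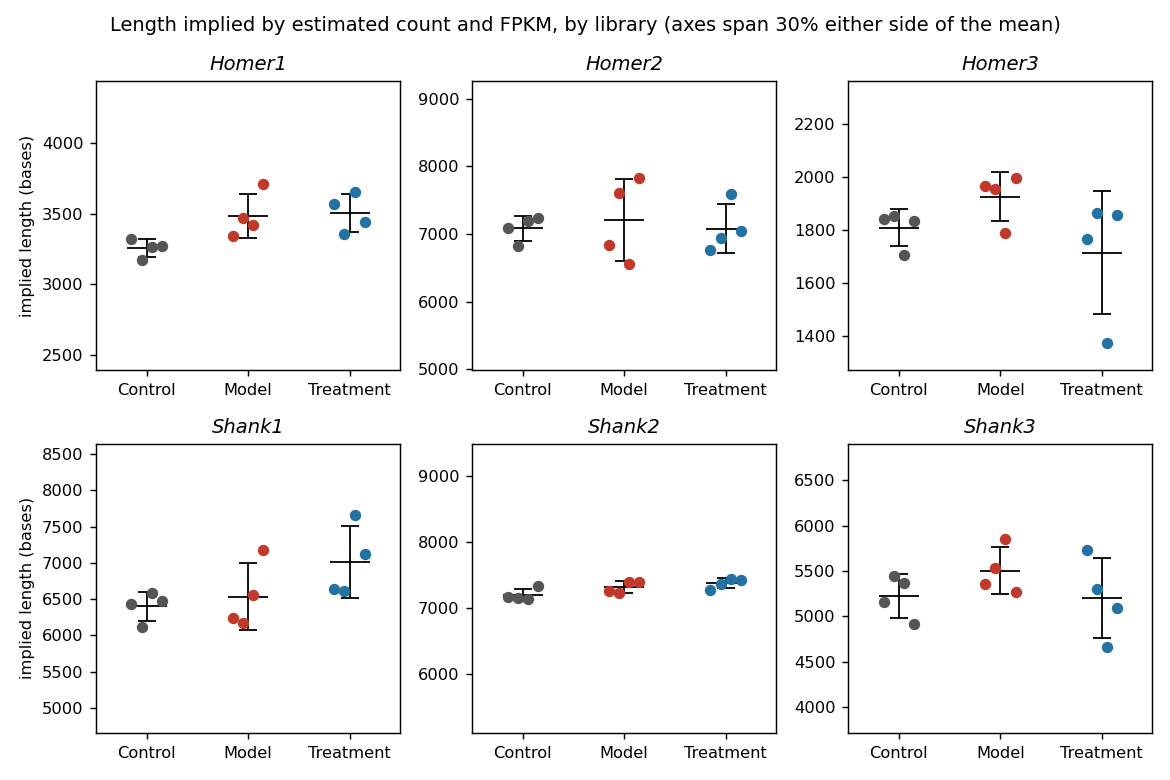
Length in bases implied by the deposited count and FPKM for each gene and library, with the mean (long bar) and SD (short bars) of 4 libraries; each vertical axis spans 30% either side of the gene's mean and does not start at 0. For Homer1 the Control libraries (3169 to 3321 bases) lie below all Model and Treatment libraries (3345 to 3710 bases), and Treatment replicate 3 stands apart for Homer3 at 1375 bases.

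Treatment was compared with Model, which asks what the compound changed in stressed mice. None of the 6 genes passed the test in this comparison, in which 1.88% of all genes did. The groups overlapped for all 6, whereas 9.50% of all genes had groups that did not overlap in either direction. The Homer1 libraries of Treatment lay within the Model range. In edgeR 0 of the 6 reached an unadjusted p under 0.05, where 18.5% of all genes did, and DESeq2, limma-voom and limma on FPKM called 0 as well. Both this comparison and the first use the Model libraries, so their values are given side by side and are not independent of each other.

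Homer1 stood at 169, 117, 112 and 127 CPM in Treatment replicates 1 to 4, with a mean of 131 ± 26.1 CPM (SD, n = 4). These values lay inside the Model range of 111 to 182 CPM, replicate 1 being the highest. The log2 fold change was -0.14 ± 0.13 (SE, adjusted p = 0.653). It was 0.04 without Treatment replicates 2 and 3, the libraries with names apart, and its sign thus changed with the libraries used. The Homer1 level relative to the other 5 genes was -0.34, -0.89, -0.75 and -0.62 log2 units in Treatment, within the Model range. The Homer1 scaling length was 3572, 3355, 3656 and 3443 bases, a mean of 3507 ± 133 bases, and differed from Model by 21.2 bases. The groups overlapped in scaling length for all 6 genes, while 2.39% of genes with a length did not overlap in either direction.

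Homer2 stood at 125, 118, 96.0 and 103 CPM in Treatment. Replicates 3 and 4 were the lowest of all 12 libraries, but replicates 1 and 2 fell inside the Model range, and the log2 fold change was -0.17 ± 0.08 (SE, adjusted p = 0.284). Homer3 stood at 45.1, 50.1, 57.3 and 48.4 CPM (log2 fold change -0.16 ± 0.09, adjusted p = 0.397). The same contrast of Homer3 was 0.03 in FPKM, where Treatment replicate 3 was high. The 5 cerebellar markers summed to 2.33 to 49.4 CPM in Model and 1.37 to 2.37 CPM in Treatment. Of the 4 tested, 4 were negative and 3 fell, and their part in the Homer3 level was not tested.

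Shank1 stood at 782, 782, 596 and 664 CPM in Treatment, a wide spread with replicates 1 and 2 above all other libraries and replicate 3 below every Control library (log2 fold change 0.11 ± 0.09 against Model, adjusted p = 0.541). Shank2 stood at 269.7, 257, 209 and 243 CPM (log2 fold change -0.02 ± 0.08, adjusted p = 0.943). Its lowest Treatment library was again replicate 3. Shank3 stood at 375, 403, 336 and 350.1 CPM (log2 fold change 0.02 ± 0.08, adjusted p = 0.947). The median log2 fold change of the 6 genes was -0.08, against 0.00 over all genes. Of the 6 genes 2 were positive, where 50.4% of all genes were. Of the 6 general neuronal genes 2 were positive too, with a median of -0.04. Dentate granule cell markers, 8 in all, summed to 720 to 887 CPM in Model and 579 to 617 CPM in Treatment. Of these 4 of 8 fell, with a median log2 fold change of -0.41. Neocortex markers were positive in 7 of 8 (2 rose), endothelial markers in 6 of 6 (2 rose) and astrocyte markers in 3 of 6 (1 rose). The part of these differences in the values of the 6 genes was not tested.

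**Figure D4:**
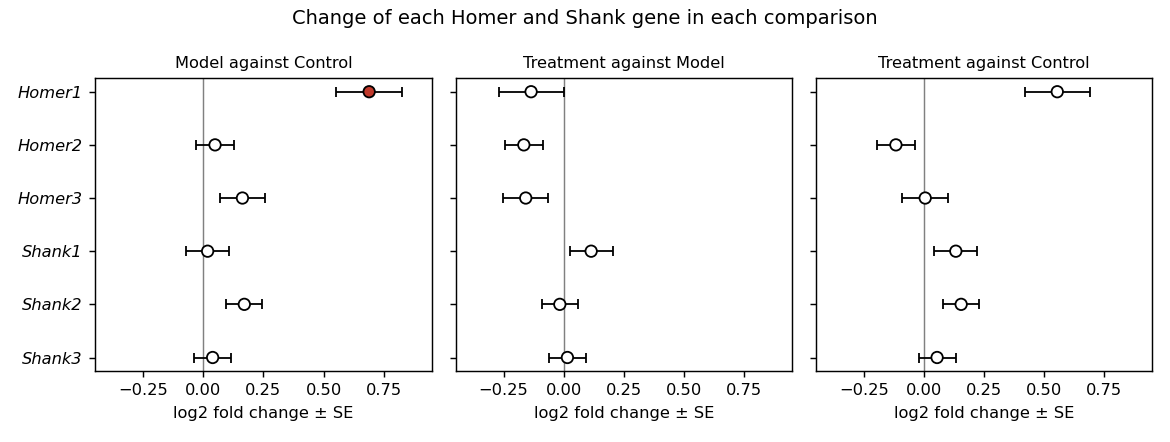
Log2 fold change ± SE of each gene in the 3 comparisons, from the edgeR fit of all 12 libraries; the filled point passed at an adjusted p under 0.05. Homer1 in Model against Control (0.69) is the filled point, its value in Treatment against Control is 0.55, and the other points lie between -0.17 and 0.17.

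Treatment was compared with Control, which asks how far stressed and treated mice stood from unstressed ones. Homer1 was higher in every Treatment library than in any Control library, with a mean 1.47 times that of Control, but did not pass the test. Of all genes 0.102% passed, and 3.99% had Treatment libraries that all lay above Control in CPM. The Control libraries are those of the first comparison and the Treatment libraries those of the second.

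The log2 fold change of Homer1 was 0.55 ± 0.14 (SE, adjusted p = 0.109 in edgeR). DESeq2 gave an adjusted p of 0.0486, and without Treatment replicates 2 and 3 the log2 fold change was 0.73 with an adjusted p of 0.0419 in edgeR. In edgeR 1 of the 6 genes, Homer1, had an unadjusted p under 0.05, as did 13.9% of all genes. The Homer1 level relative to the other 5 genes was 0.49 log2 units higher in Treatment, again without overlap. No share over all genes was computed for that score. Its scaling length was 251 bases longer than in Control, with no overlap, as in 1.06% of the genes with a length. On the FPKM scale Treatment replicate 3, at 30.5 FPKM, reached down to the Control libraries. Marker levels moved in this comparison too: 15 of 15 choroid plexus markers were negative (median log2 fold change -1.02, 0 passed in edgeR and 15 at an unadjusted p under 0.05). Dentate granule cell markers were negative in 8 of 8 (median -0.22), endothelial markers positive in 6 of 6 (median 0.39), and 1 of 6 oligodendrocyte markers fell. Their part in the Homer1 level was not tested beyond the choroid plexus covariate, with which 0 of the 6 genes passed.

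The other 5 genes overlapped between Treatment and Control. Homer2 had a log2 fold change of -0.12 ± 0.08 (SE, adjusted p = 0.560) and Homer3 one of 0.00 ± 0.09 (adjusted p = 0.991). Shank1 gave 0.13 ± 0.09 (adjusted p = 0.555), Shank2 0.15 ± 0.08 (0.382) and Shank3 0.05 ± 0.08 (0.819). For Shank2, as in Model, 3 of the 4 Treatment libraries lay above the highest Control library. The scaling length of Shank1 was 609 bases (9.52%) longer in Treatment than in Control, without overlap, and longest in replicate 3 at 7666 bases. The median log2 fold change of the 6 genes was 0.09 against -0.01 over all genes. Of the 6 genes 5 were positive, where 47.9% of all genes were. Of the 6 general neuronal genes 5 were positive too, with a median of 0.11.

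The proteins that Homer and Shank bind were followed through a list of 44 genes, all of which were tested. None passed in any comparison in edgeR. Most of them leaned upward in Model against Control by small amounts. In that comparison 37 of 44 had a positive log2 fold change (median 0.08), beside 47.3% of all genes (median -0.01). The 6 general neuronal genes leaned the same way (6 of 6 positive, median 0.13), so the lean was not particular to the partners. Of the 44, 5 had an unadjusted p under 0.05, where 15.6% of all genes did. DESeq2 called 2 (Baiap2 and Grm5), beside 3.54% of all genes. In Treatment against Model 16 of 44 were positive (median -0.06), beside 50.4% of all genes and 2 of 6 general neuronal genes (median -0.04). Of the 44, 14 had an unadjusted p under 0.05, where 18.5% of all genes did. DESeq2 called 3 there (Dlgap3, Grm5 and Grin2a), beside 5.85% of all genes. In Treatment against Control 27 were positive (median 0.03), beside 47.9%, and 9 had an unadjusted p under 0.05, beside 13.9%. DESeq2 called 3 there (Baiap2, Grin1 and Dlgap4), beside 2.31% of all genes. The names called by DESeq2 alone were chosen after their values were seen.

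Among the receptors and calcium channels that Homer binds, 6 of 11 were positive in Model against Control. Grm5, the metabotropic receptor mGluR5 and the chief Homer ligand in the hippocampus, stood at 225, 251, 274 and 261 CPM in Control and at 270, 297, 320 and 310 CPM in Model. It stood at 264, 252, 255 and 257 CPM in Treatment. Model was the highest group, with all but replicate 1 above every other library, and no difference passed (log2 fold change 0.24 ± 0.07 (SE), adjusted p = 0.0891, against Control, and -0.22 ± 0.07, adjusted p = 0.0973, for Treatment against Model). Its log2 fold change in Treatment against Control was 0.03 ± 0.07 (adjusted p = 0.912), whereas that of Homer1 was 0.55.

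On the Shank side, all 8 Dlg and Dlgap scaffolds were positive in Model against Control, with a median of 0.06. Dlg4, which encodes PSD-95, averaged 796 ± 49.7, 807 ± 52.3 and 814 ± 42.7 CPM (SD, n = 4) in Control, Model and Treatment, and was level between groups within its spread (log2 fold change 0.02 ± 0.06, adjusted p = 0.917, in Model against Control). Dlgap1, the GKAP protein that links Shank to PSD-95, averaged 510 ± 24, 556 ± 26.4 and 529 ± 37.1 CPM (adjusted p = 0.338 in Model against Control). Of the actin and GTPase partners of Shank 8 of 9 were positive, with a median of 0.12. The smallest adjusted p of the 44 was in this group, 0.0544 for Baiap2 (IRSp53, which shapes the actin of spines), with a log2 fold change of 0.32 ± 0.07. Of the genes on the NMDA receptor side 7 of 7 were positive (median 0.07). Of the adhesion molecules 4 of 4 were positive (median 0.06), and of other Homer-bound proteins 4 of 5 (median 0.09). No role median exceeded the 0.13 of the 6 general neuronal genes.

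**Figure D5:**
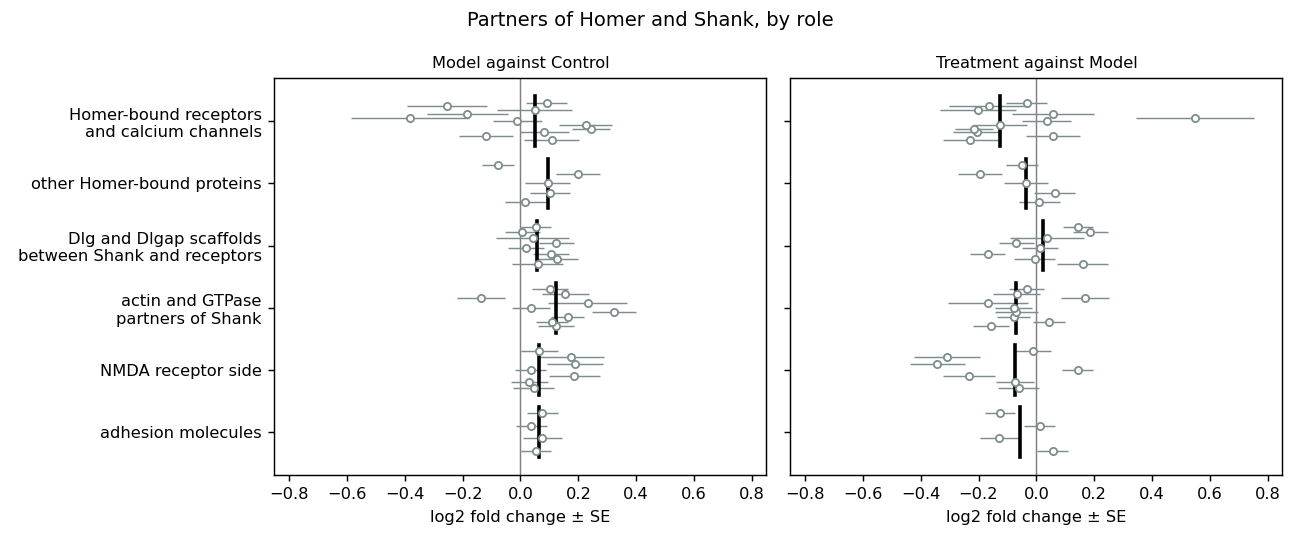
Log2 fold change ± SE of the 44 partner genes by role, in Model against Control (left) and Treatment against Model (right), with the median of each role as a vertical bar; open points did not pass. The role medians lie between 0.05 and 0.12 on the left and between -0.12 and 0.02 on the right, and 0 of the 44 passed in either.

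Because 1 form of Homer1 is made in response to synaptic activity, 24 activity-induced genes were read in the same fit. In Model against Control 3 of 24 rose and 0 fell, with 15 positive and 9 negative log2 fold changes (median 0.10). Of the 24, 9 had an unadjusted p under 0.05. Of all genes 0.339% passed as higher and 15.6% had an unadjusted p under 0.05. The list was chosen with earlier results of these data known, so its counts here and below are a description. The genes that rose were Fosb, an AP-1 subunit, Egr3, a zinc finger factor, and Inhba, an activin subunit. Egr3 stood at 88.0, 94.6, 92.9 and 92.8 CPM in Control, at 109, 128, 131 and 152 CPM in Model and at 163, 138, 127 and 147 CPM in Treatment. As for Homer1, the Control libraries were lowest, Model replicate 4 was the highest Model library and Treatment replicate 1 the highest Treatment library. The log2 fold changes of Egr3 were 0.50 ± 0.09 (SE, adjusted p = 0.0212) in Model against Control, 0.15 ± 0.09 (0.405) in Treatment against Model and 0.64 ± 0.09 (0.0168) in Treatment against Control.

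Inhba stood at 7.19, 5.90, 7.22 and 7.44 CPM in Control, at 8.98, 12.8, 12.6 and 14.9 CPM in Model and at 14.7, 8.87, 10.7 and 9.18 CPM in Treatment. It passed in Model against Control (0.83 ± 0.17, adjusted p = 0.0357) and did not in Treatment against Control (0.65 ± 0.17, 0.125), with no overlap with Control in either. Fosb averaged 5.39 ± 0.818, 9.86 ± 0.974 and 9.57 ± 1.03 CPM (SD, n = 4) in Control, Model and Treatment and passed in both comparisons with Control (adjusted p = 0.0111 and 0.0272). Nptx2, a secreted pentraxin that gathers AMPA receptors, passed in Treatment against Control (0.77 ± 0.14, adjusted p = 0.0499). With Fosb and Egr3 it made 3 of 24 that passed as higher there, beside 0.0645% of all genes. Per1, a clock gene, was the 1 that passed in Treatment against Model (0.39 ± 0.09, adjusted p = 0.0399), where 1.18% of all genes passed as higher. Unlike Homer1, Per1 was lowest in Model, at 55.0 to 57.8 CPM. It ran from 61.7 to 72.4 CPM in Control and from 62.2 to 88.1 CPM in Treatment, and did not pass in Model against Control. Arc and Fos, rapid genes named whatever their result, did not pass in Model against Control. Arc had a log2 fold change of -0.15 ± 0.11 (adjusted p = 0.570) and Fos one of 0.28 ± 0.28 (0.691). Fos was low, at 3.26 to 6.65 CPM in Control and 3.64 to 8.67 CPM in Model.

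Over the 12 libraries Shank1 varied together with Shank2 and Shank3, and Homer1 varied with Homer2 inside the groups. The correlations below describe 12 libraries of 3 groups that also share differences in tissue makeup, and carry no test. Pearson's r of log2 CPM between Shank1 and Shank2 was 0.80, and 0.93 for deviations from the group means. Between Shank1 and Shank3 it was 0.64 both ways. Homer1 had an r of 0.27 with Homer2, and 0.62 for deviations from the group means. With Homer3 these were 0.06 and -0.41, with Shank1 0.10 and -0.07, with Shank2 0.52 and 0.08, and with Shank3 0.08 and -0.12.

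The genes most like each of the 6 were sought among 13668 tested genes by Pearson's r over the 12 libraries. For Homer1 they were Foxk2 (r = 0.96), a forkhead factor, Atp2a2 (0.95), the calcium pump SERCA2 of the endoplasmic reticulum, and Tmem127 (0.95), a membrane protein. Without the 2 libraries farthest from the Homer1 median, Model replicate 4 and Treatment replicate 1, these were 0.92, 0.93 and 0.91. The genes had been picked by their r over all 12 libraries, so the values without 2 of these are no independent check. Spearman's rho was 0.90, 0.96 and 0.93, and r of deviations from group means was 0.93, 0.86 and 0.89.

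For Shank1 the most alike genes were Dync1h1 (r = 0.96), the heavy chain of cytoplasmic dynein, Lrp1 (0.95), a large endocytic receptor, and Csmd2 (0.94). Shank2 was most like Dlg2 (0.95), which encodes the PSD-93 scaffold and is itself on the partner list, Ttbk1 (0.93) and Hcfc1 (0.91). Shank3 had no gene as close: Arfgap3, Pcdhgb7 and Kdm3b led with 0.82, 0.82 and 0.81, and dropped to 0.65, 0.62 and 0.77 without Model replicate 3 and Treatment replicate 2. Homer2 was most like Dtna (0.96), Hapstr1 (0.95) and Tgfbr1 (0.94). These fell to 0.85, 0.82 and 0.89 without Treatment replicates 3 and 4, and Spearman's rho was 0.80, 0.83 and 0.95. Homer3 was most like Arhgef25 (0.89), Kcnip2 (0.89) and Cap1 (0.88), or 0.84, 0.86 and 0.82 without Model replicates 1 and 3. No gene appeared in the lists of more than 1 of the 6.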

How the data were processed

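Poly(A) RNA of the hippocampus was sequenced in 12 libraries, 4 per group, with groups taken from the labels. The tools named, per the submitters' processing notes, are Salmon 1.10.1, STAR 2.7.10a, FastQC 0.12.1, Trim Galore 0.6.7 and cutadapt 3.4, and the builds are mm39 and GRCm39. The strand setting and the annotation release are not given in the sources used here. The deposited table holds an unscaled estimated count per gene and library (28.8% of nonzero values are not whole within 1e-06). It also holds deposited FPKM values, scaled by the authors by length and library total.

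Estimated counts were rounded and fitted in edgeR 4.0.16 (R 4.3.3): filterByExpr, TMM scaling, 1 quasi-likelihood model of all 12 libraries with a mean per group, and Benjamini-Hochberg adjustment over the 18600 genes tested, with a threshold of 0.05. The biological coefficient of variation was 10.7%. CPM use TMM-scaled library sizes, and log2 CPM a prior count of 2. The scaling length is the count divided by FPKM and by the library total, times a constant. Planned tests of Homer1 against the other 5 genes and of its scaling length are given by their values only, since Homer1 was picked with its rise known.

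Alternatives were RLE scaling, DESeq2 1.42.0, limma-voom (limma 3.58.1), no filter, at least 1 CPM in 8 libraries, only the 8 libraries compared, a replicate block, a choroid plexus covariate, left-out libraries, and FPKM (at least 0.5 in 4 libraries, or no filter) in limma with pseudocounts of 0.1 and 1. An alternative that divided the scaling length by each library's median shift was chosen after seeing the data. The 6 genes and all lists were chosen with earlier results of these data known. Named genes are the 6, listed partners and activity genes that passed, Grm5, Dlg4, Dlgap1, Arc and Fos, and the 3 genes most correlated with each of the 6 (mean of at least 1 CPM). A gene that the rule also names is not reported here. Baiap2 and the partners called by DESeq2 were named after their values were seen. The fit was tested on simulated data. Reads were not used, so transcripts were not counted separately. Python 3.11.15 and matplotlib 3.10.9 drew the figures.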

Additional observations from a re-analysis of the deposited data

Results flagged for a closer look

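Of 39 groups of 4 libraries that were examined, 3 held a library far from the other 3 by Dixon's gap at the 95% level, and chance alone flags about 1 group in 20. The Homer3 scaling length was 1708 bases in Control replicate 3, against 1836 to 1854 bases in the other Control libraries. The Shank2 scaling length was 7333 bases in Control replicate 4, against 7134 to 7157 bases in the others. Homer1 relative to the other 5 genes was -0.998 log2 units in Control replicate 3, against -1.21 to -1.18 in the others, and that library was thus the Control nearest to the Model libraries.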

How the results depend on the processing

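The direction of the Homer1 change in both comparisons with Control was the same under every alternative tried. Of the 6 genes 0 passed in Model against Control with the choroid plexus covariate and on the 3 FPKM settings (Homer1 adjusted p from 0.127 to 0.337 over these), and 0 or 1 when a library was left out. Of all genes, 3 passed there with the covariate and 5 to 8 on the FPKM settings. In Treatment against Control 1 passed in DESeq2, without a filter and without Treatment replicates 2 and 3. Partners passing in Model against Control numbered 2 in DESeq2, 2 without a filter, 1 at 1 CPM in 8 libraries, 2 with only the 8 libraries compared, 1 without Treatment replicates 2 and 3 and 0 to 1 with a library left out. In Treatment against Model they were 3 in DESeq2, 3 without a filter and 0 to 1 with a library left out, and in Treatment against Control 3, 2 and 1 (DESeq2, no filter, without Treatment replicates 2 and 3). Small fold changes reversed. Without Treatment replicates 2 and 3, Treatment against Model was 0.037 for Homer1 and 0.051 for Shank2, and Treatment against Control was -0.097 for Homer3. On FPKM with pseudocounts of 0.1 (with and without a filter) and 1, Homer3 was 0.027, 0.027 and 0.026 in Treatment against Model, Shank1 was -0.036 and Shank3 -0.063 at each in Model against Control, and Shank1 was -0.020 at each in Treatment against Control. With 1 library left out, Homer3 ran from -0.066 to 0.080 in Treatment against Control, Shank1 from -0.027 to 0.068 and Shank3 from -0.019 to 0.10 in Model against Control, and Shank2 from -0.066 to 0.046 and Shank3 from -0.037 to 0.084 in Treatment against Model. The cause was not tested.

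Homer1 relative to the other 5 genes ran from 0.44 to 0.72 (Model against Control), from 0.39 to 0.57 (Treatment against Control) and from -0.22 to 0.056 (Treatment against Model) with 1 library left out. Without Treatment replicates 2 and 3 it was 0.080 in Treatment against Model and 0.66 in Treatment against Control, and against Homer2 and Homer3 only it was 0.030 in Treatment against Model. The Homer1 scaling length differed by 155 to 276, 201 to 301 and -28.4 to 96.1 bases in the same order with 1 library left out and by 241, 288 and 47.1 bases after division by each library's median shift.

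Same-numbered libraries deviated together with correlations of -0.04 to 0.11 over genes, so the numbers are not treated as pairs. With a replicate block Homer1 passed in Model against Control (0.68, adjusted p = 0.039), 1 partner (Baiap2) passed there, and all genes passing went from 147 to 228, from 350 to 431 and from 19 to 118 in the 3 comparisons. With 4 libraries in every group a block cannot change the mean differences of Homer1 relative to the other 5 genes. These were 0.58 and 0.49 against Control with and without it, which says nothing on how firm they are. Between 17083260 and 27479083 counts per library and 4 libraries per group limit the precision of every value here.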
